A study of Homo sapiens with 14 samples.

Results

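The 8 genes described here are LIN28A and LIN28B, the microRNA processing enzyme DICER1, the IGF2 mRNA-binding proteins IGF2BP1, IGF2BP2 and IGF2BP3, and the chromatin proteins HMGA1 and HMGA2. They were taken by gene symbol from count tables that together list 19726 gene identifiers, and each has 1 identifier. The samples are 14 RNA-seq libraries of CHP-134, an established human neuroblastoma line in which MYCN is amplified. In the first experiment, cells engineered by lentivirus with a Tet-On cassette received 1 μg/ml doxycycline for 3 days to induce either enhanced green fluorescent protein (EGFP, n = 3) or OmoMYC (n = 3), a mutated MYC dimerization domain that interferes with N-MYC. In the second, parental CHP-134 cells, which carry no degradation tag, were given DMSO (n = 4) or 500 nM dTAG47 (n = 4) for 18 h, so this experiment measures what the degrader molecule does on its own. EGFP and OmoMYC were carried by separately engineered lines, so a difference between the lines and a difference made by OmoMYC cannot be told apart. The study calls its replicates biological, and a p-value here measures the spread between such libraries.

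LIN28A and LIN28B bind the precursors of let-7 microRNAs and keep them from being matured by the endonuclease DICER1. Mature let-7 in turn pairs through its seed with 3′ UTRs of LIN28, HMGA2 and IGF2BP mRNAs and represses them, which makes the circuit a double-negative loop. These genes are called oncofetal because most of them are high in embryonic tissue, low in adult tissue and expressed again in tumours. In neuroblastoma, LIN28B is known as a gene of high-risk disease that raises N-MYC protein through loss of let-7. IGF2BP proteins bind and stabilize mRNAs, and HMGA proteins bend AT-rich DNA and alter chromatin structure.

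The mature let-7 sequences are given because their seed is what the target sites below are matched to. RefSeq annotation of GRCh38.p14 holds 9 mature microRNAs of the family, let-7a to let-7g, let-7i and miR-98, and all 9 have the seed GAGGUAG at bases 2 to 8. The sequences of 3 of them follow 5′ to 3′ with the seed in capitals.
let-7a-5p: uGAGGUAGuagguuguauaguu
let-7i-5p: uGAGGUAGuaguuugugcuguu
miR-98-5p: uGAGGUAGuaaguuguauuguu
The tables list no let-7 gene, so the level of let-7 itself was not measured.

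The complement of that seed, CTACCTC, was searched on the sense strand of the 3′ UTR of each gene's canonical transcript. LIN28B, HMGA2 and IGF2BP1 each carried 4 matches. LIN28A, HMGA1, IGF2BP2 and IGF2BP3 carried 1 each, and the 3′ UTR of DICER1, 4270 bases long, carried none. Of 17903 3′ UTRs searched, 10.1% had at least 1 match and 0.067% had 4 or more. UTR length differs between these groups of genes, and the 3′ UTRs of IGF2BP1 and LIN28B are 6701 and 4549 bases long against a median of 1128 over all genes. The 4 stretches of LIN28B and those of IGF2BP1 and IGF2BP3 follow because these genes carry the results, together with the first of HMGA2. Each stretch is 23 bases of GRCh37, with the match in capitals. The plus strand is given for LIN28B, IGF2BP1 and HMGA2 and the minus strand for IGF2BP3.
LIN28B site 1, chr6:105526687-105526709: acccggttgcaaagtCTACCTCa
LIN28B site 2, chr6:105529114-105529136: tactgatgatagtaaCTACCTCt
LIN28B site 3, chr6:105529296-105529318: gtttacagcaaaaggCTACCTCa
LIN28B site 4, chr6:105530735-105530757: aaatgatggtgttgaCTACCTCt
IGF2BP1 site 1, chr17:47128423-47128445: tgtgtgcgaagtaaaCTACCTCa
IGF2BP1 site 2, chr17:47131060-47131082: cagcagtgctagtaaCTACCTCa
IGF2BP1 site 3, chr17:47131714-47131736: gtataaatggattaaCTACCTCa
IGF2BP1 site 4, chr17:47132359-47132381: tcacttttgttttatCTACCTCt
IGF2BP3 site 1, chr7:23351414-23351436: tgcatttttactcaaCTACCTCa
HMGA2 site 1, chr12:66357078-66357100: gccaacgttcgatttCTACCTCa
An A directly after the match, which is known to strengthen microRNA sites, was present in 2 of the 4 LIN28B sites, 3 of the 4 IGF2BP1 sites and the single site of IGF2BP3. A match is a description of the sequence, and whether any of these stretches is bound in CHP-134 cells was not measured.

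**Figure D1:**
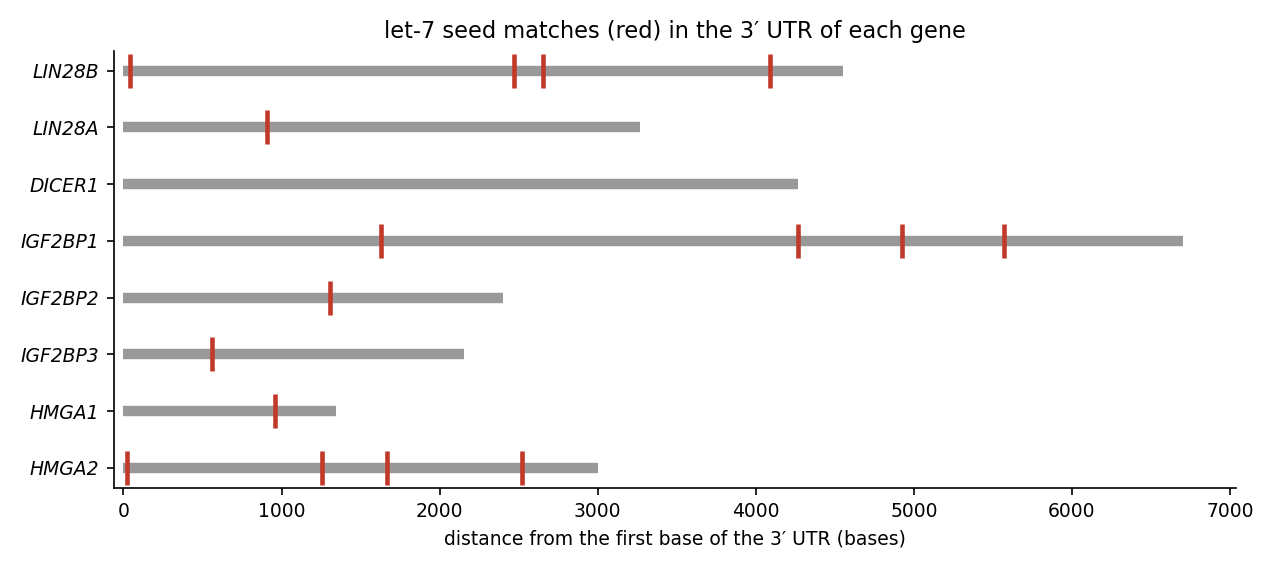
Positions of let-7 seed matches in the 3′ UTR of the 8 genes. The x axis is the distance in bases from the first base after the stop codon, each grey bar is as long as the 3′ UTR of the canonical transcript, and each red tick is 1 match to CTACCTC. LIN28B, IGF2BP1 and HMGA2 carry 4 ticks each and DICER1 carries none.

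MYC proteins bind the E-box CACGTG, so the promoter windows of the genes were searched for it. RefSeq windows of GRCh38.p14, from 250 bases before to 50 bases after a gene start, were given for 5 of the 8 genes, 12 windows in all. The motif is its own reverse complement, so a single search covers both strands. It occurred in 2 of the 12 windows, against 7.26% of 35116 windows of the same length. IGF2BP3 had 2 copies in its single window and LIN28B had 1 copy in the second of its windows, 47 bases before the start. No copy was found in the windows of DICER1, HMGA1 and IGF2BP2. The stretches that hold the copies are shown in the direction of transcription, which is the minus strand for IGF2BP3 and the plus strand for LIN28B, with the motif in capitals.
IGF2BP3 promoter, chr7:23470613-23470712: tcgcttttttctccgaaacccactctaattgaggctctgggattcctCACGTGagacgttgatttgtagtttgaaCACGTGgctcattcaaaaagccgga
LIN28B promoter, chr6:104957013-104957106: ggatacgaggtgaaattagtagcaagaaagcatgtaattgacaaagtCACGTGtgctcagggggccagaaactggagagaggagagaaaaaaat
Binding at these windows was not part of the data.

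Library totals were 28060817 to 38358128 counts in the engineered cells and 40861430 to 53451641 in the parental cells. Genes called at an FDR below 0.05 numbered 7311 of 13803 tested with OmoMYC and 23 of 14470 with dTAG47. Reads assigned to MYC, which include those of the induced OmoMYC sequence, were 0.568 to 0.689 CPM (counts relative to the library total, scaled by TMM) in the EGFP libraries and 513 to 527 CPM in the OmoMYC libraries, in keeping with the labels. MYCN was at 2408, 2830 and 2900 CPM with EGFP and 2227, 2182 and 2312 CPM with OmoMYC, a fitted log2 fold change of -0.28 (SE 0.07, edgeR FDR = 0.0103). The summed level of 8 adrenergic neuroblastoma markers was 1317 to 1473 CPM with EGFP, 1374 to 1405 with OmoMYC, and 1286 to 1377 CPM over the parental libraries, although the defining enzymes TH and DBH were near 1 CPM or below in the engineered cells. Markers of other cell types summed to 21.6 to 28.7 CPM with EGFP and 32.7 to 40.7 with OmoMYC, mostly from the collagen gene COL1A1, and their part in the results below was not tested.

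HMGA1 and IGF2BP1 were the most highly expressed of the 8 genes, and LIN28B, DICER1 and IGF2BP3 formed a middle group. To compare genes, levels were taken per kilobase of the canonical transcript (RPKM). In EGFP cells, the RPKM level was 283 ± 42.5 for HMGA1 and 88.9 ± 4.64 for IGF2BP1 (mean ± SD, n = 3), above those of 98.8% and 95.1% of tested genes. IGF2BP3 was at 26.0 ± 1.16 RPKM, DICER1 at 24.8 ± 1.95 RPKM and LIN28B at 19.9 ± 2.35 RPKM. The libraries of IGF2BP3 and DICER1 overlapped in RPKM (24.7 to 26.8 against 23.0 to 26.9), so these neighbours did not differ beyond their spread, whereas every LIN28B library (17.8 to 22.4) was below every DICER1 library.

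Within the families, RNA levels were unequal. LIN28A, the paralog of LIN28B, was at 0.330 ± 0.128 RPKM in EGFP cells and at 0.381 ± 0.0531 RPKM in DMSO-treated parental cells, so that LIN28B exceeded it 65.8 ± 22.6 fold in RPKM with EGFP and 52.7 ± 9.29 fold with DMSO. IGF2BP1 exceeded IGF2BP3 3.42 ± 0.312 fold with EGFP and 3.22 ± 0.124 fold with DMSO. The order of the 5 expressed genes by mean RPKM was the same in the EGFP and DMSO groups.

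HMGA2 and IGF2BP2 were almost silent in parental cells. HMGA2 had 0 counts in each of the 4 DMSO libraries, which allows a level of up to 0.0162 CPM, and 0, 2, 0 and 0 counts in the dTAG47 libraries. The gene was not listed in the table of the engineered cells and was not analysed there. IGF2BP2 had 2, 6, 2 and 3 counts with DMSO and 1, 6, 3 and 0 counts with dTAG47, and was under the filter for testing. In the engineered cells IGF2BP2 was counted 16, 23 and 25 times with EGFP and 23, 25 and 19 times with OmoMYC, so its mean CPM with EGFP was 10.5 times that with DMSO. The tables were scaled separately and differ in cell line, serum and doxycycline, so this ratio was not tested. Over the other 6 genes the EGFP to DMSO ratio of mean CPM ran from 0.868 for LIN28A to 1.37 for HMGA1.

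**Figure D2:**
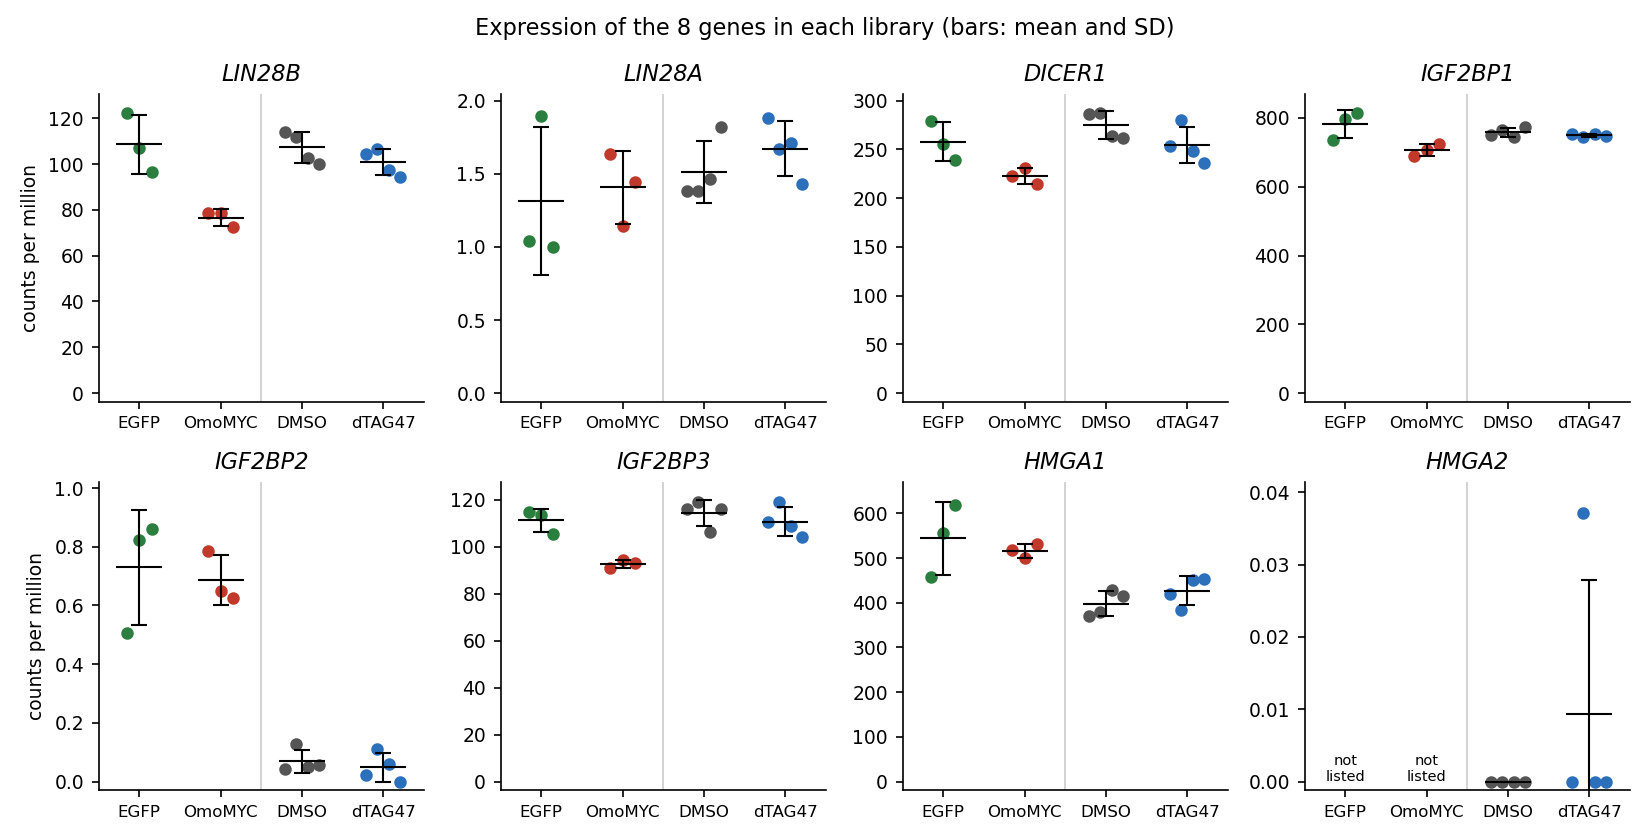
Expression of the 8 genes by library. The y axes are CPM, on a separate linear scale for each gene; points are libraries, horizontal bars are group means and error bars are SD (n = 3 for EGFP and OmoMYC, n = 4 for DMSO and dTAG47). The 3 OmoMYC libraries lie below the 3 EGFP libraries for LIN28B, DICER1, IGF2BP1 and IGF2BP3, and the DMSO and dTAG47 libraries overlap for each gene.

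To ask whether genes of the let-7 circuit depend on N-MYC function, OmoMYC was compared with EGFP. LIN28B, IGF2BP3 and DICER1 fell, IGF2BP1 was lower in each OmoMYC library without passing the FDR, and HMGA1, LIN28A and IGF2BP2 overlapped between the groups. Thus 3 of 7 tested members were called lower and 0 higher, where 25.7% of all tested genes were called lower and 27.3% higher. At an unadjusted p below 0.05, 4 of the 7 passed, against 59.2% of all genes. The groups did not overlap for 4 of the 7, OmoMYC being lower in each, whereas 62.3% of all genes did not overlap and 30.3% were lower without overlap. The median log2 fold change was -0.15 over the 7 genes and 0.01 over all tested genes.

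LIN28B (chr6:105384491-105531207, plus strand of GRCh37) had the largest change of the 7 tested members in this fit, whereas HMGA1 had it (-0.46 against -0.33 on the log2 scale) in a fit corrected for base composition and length. It was at 122, 107 and 96.7 CPM in the EGFP libraries and at 78.8, 78.5 and 72.5 CPM in the OmoMYC libraries. All 3 OmoMYC libraries were lower than the lowest EGFP library, and the first EGFP library was the highest. The fitted log2 fold change was -0.50 (SE 0.09, 95% confidence interval -0.70 to -0.30, edgeR FDR = 0.00108), a level 0.705 times that with EGFP. LIN28B ranked 1451 by size among the 3545 genes called lower, whose median log2 fold change was -0.45. Its RPKM level went from above 74.0% of tested genes with EGFP to above 65.0% with OmoMYC. In RNA from whole cultures, fewer cells that express a gene and less RNA per cell cannot be told apart. The antisense gene LIN28B-AS1 overlaps it, and the strand setting of the counting was not given in the sources used here.

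DICER1 (chr14:95552565-95624347, minus strand), which cuts precursor microRNAs to their mature form, changed less. It was at 279, 256 and 239 CPM with EGFP and at 223, 231 and 215 CPM with OmoMYC. The groups did not overlap, but the third EGFP library and the second OmoMYC library were close to each other. The log2 fold change was -0.21 (SE 0.07, 95% interval -0.37 to -0.05, edgeR FDR = 0.0320). Leaving out EGFP replicate 2 ended the call (FDR = 0.0671 by edgeR), and so did leaving out replicate 1 (FDR = 0.0975) or 3 (FDR = 0.0762) of OmoMYC.

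LIN28A (chr1:26737308-26756219, plus strand), the paralog with the same let-7 binding activity, had 33, 53 and 29 counts with EGFP and 48, 44 and 44 with OmoMYC. The groups overlapped, and the log2 fold change was 0.10 (95% interval -0.51 to 0.71, edgeR FDR = 0.784). A change of the size seen for LIN28B lies within that interval and was not detectable at this depth.

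Of the IGF2BP family, IGF2BP3 (chr7:23349828-23510110, minus strand) fell. It was at 115, 114 and 106 CPM with EGFP and at 91.0, 94.2 and 93.1 CPM with OmoMYC. The OmoMYC libraries lay close together and below every EGFP library, with a log2 fold change of -0.26 (SE 0.07, 95% interval -0.41 to -0.11, edgeR FDR = 0.00775).

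IGF2BP1 (chr17:47074747-47133507, plus strand), the most abundant member of the family, was at 736, 797 and 814 CPM with EGFP and at 689, 706 and 724 CPM with OmoMYC. Each OmoMYC library was lower than each EGFP library, but the log2 fold change of -0.15 (SE 0.06, 95% interval -0.28 to -0.01) had an edgeR FDR of 0.0667 and was not called. DESeq2 gave -0.17 with an FDR of 0.0395. For IGF2BP2 (chr3:185360918-185542830, minus strand), the log2 fold change was -0.08 (95% interval -0.71 to 0.54, edgeR FDR = 0.821), with fewer than 30 counts in every library.

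HMGA1 (chr6:34204650-34214008, plus strand), an architectural protein of open chromatin, was at 457, 556 and 618 CPM with EGFP and at 517, 500 and 531 CPM with OmoMYC. The OmoMYC libraries fell inside the range of the EGFP libraries, of which the first was lowest and the third highest. The log2 fold change was -0.08 (SE 0.10, 95% interval -0.29 to 0.14, edgeR FDR = 0.532). HMGA1 has annotated pseudogenes, to which its reads may partly have been assigned. Without EGFP replicate 1 the estimate was -0.20 with an FDR of 0.00532.

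**Figure D3:**
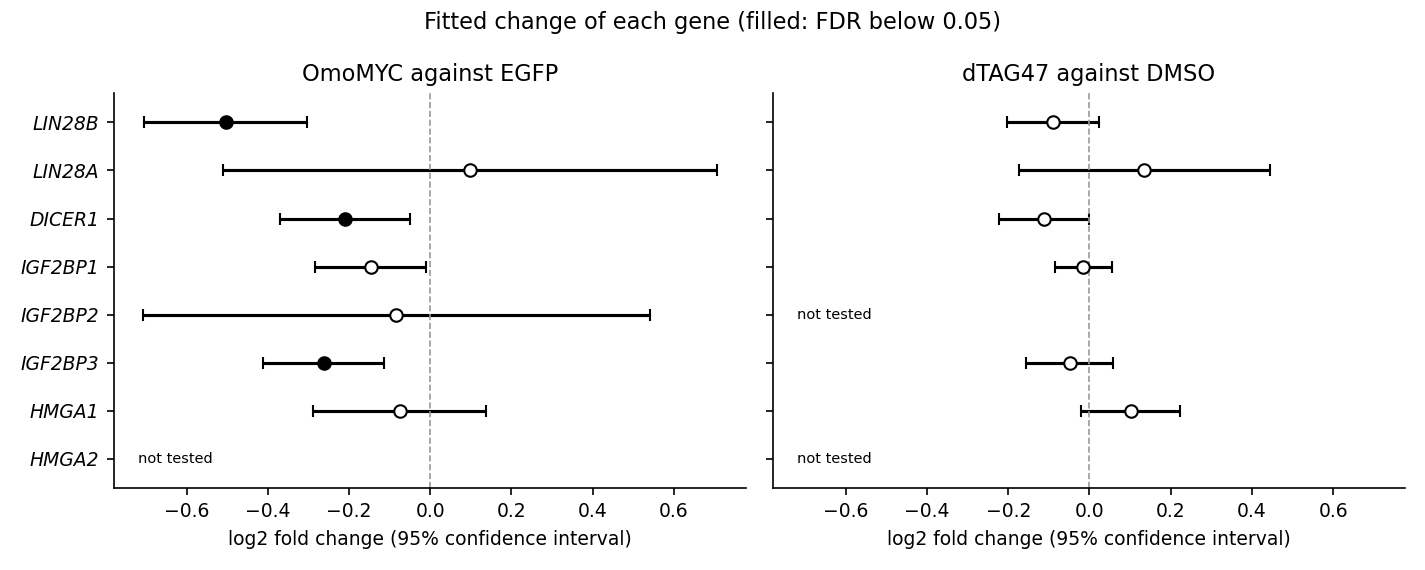
Fitted log2 fold change of each gene with its 95% confidence interval, for OmoMYC against EGFP (left) and dTAG47 against DMSO (right). Filled points have an edgeR FDR below 0.05; LIN28B, DICER1 and IGF2BP3 are filled on the left and none on the right. The intervals of LIN28A and IGF2BP2 are the widest because few reads were counted.

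The called members had AT-rich transcripts. The GC content of the canonical transcript was 38.0% for LIN28B, 40.2% for DICER1 and 40.5% for IGF2BP3, the 3 genes called, and 48.4% for LIN28A, 48.9% for IGF2BP2, 49.1% for IGF2BP1 and 61.6% for HMGA1. The 3 called were thus the lowest in GC content of these 7 genes, and LIN28B, the lowest, had the largest change in the reported fit. DICER1 and IGF2BP3 were close in GC content. Their confidence intervals overlapped (-0.37 to -0.05 and -0.41 to -0.11), so their order cannot show whether size followed GC content. That relation was not tested. When trends of counts on GC content, transcript length and gene span were removed together from every library, so that their parts cannot be told apart, the log2 fold change was -0.33 for LIN28B, -0.15 for IGF2BP3 and -0.09 for DICER1, each still called. The same fit gave -0.32 for IGF2BP1 (edgeR FDR = 1.67e-07) and -0.46 for HMGA1 (FDR = 3.97e-10), so that 5 of the 7 genes were called lower. The share of all tested genes called lower rose from 25.7% to 39.6% under this fit, and the share of calls that were higher went from 51.5% to 35.8%. The median log2 fold change of all tested genes moved from 0.01 to -0.09, so this fit also shifted genes as a whole. The ordering of the members by size of change therefore depended on this correction. The signs of LIN28B, DICER1, IGF2BP1, IGF2BP3 and HMGA1 did not depend on it. For DICER1, which lay close to the median of that fit, the kept sign does not show a fall relative to other genes.

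**Figure D4:**
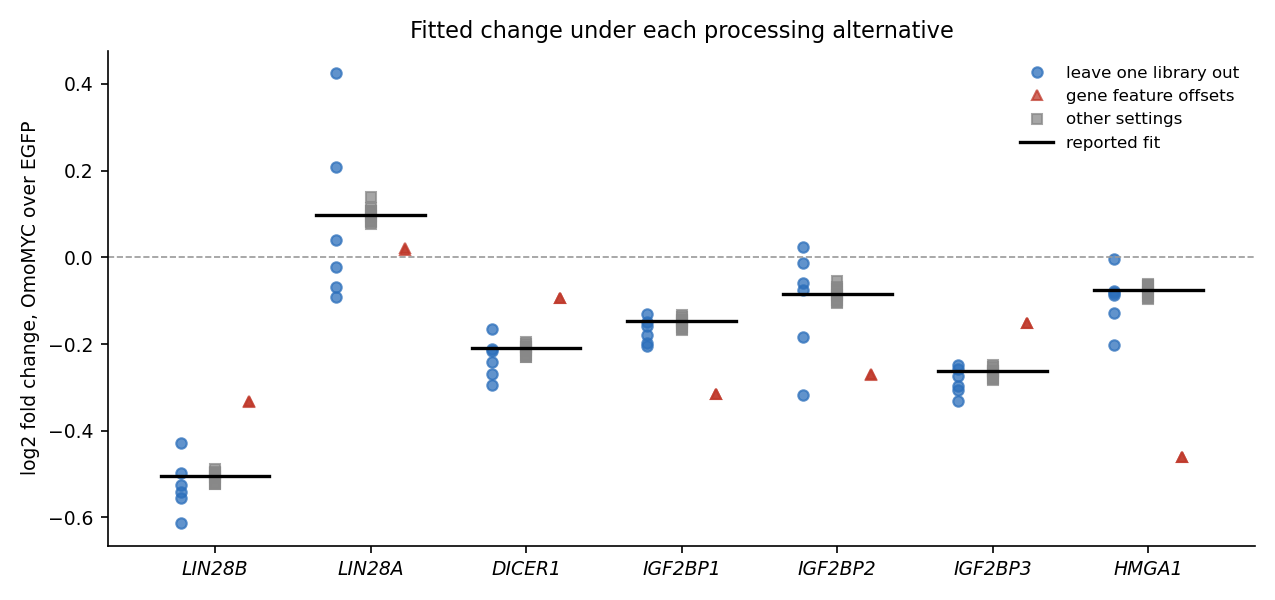
Log2 fold change of 7 genes, OmoMYC over EGFP, under each processing alternative. Black lines are the reported fits, blue circles leave out 1 library each, red triangles are fits with offsets for gene features and grey squares are other settings. LIN28B lies between -0.61 and -0.33 throughout, and HMGA1 moves from -0.08 to -0.46 with the offsets.

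In parental cells, dTAG47 was compared with DMSO as the control for the degrader molecule itself. None of the 6 tested members was called by edgeR, where 0.159% of all tested genes were (0.117% higher and 0.0415% lower), and 0 of the 6 had an unadjusted p below 0.05, against 7.28% of all genes. DESeq2 and limma-voom also called none. The groups overlapped for all 6, as they did for all but 3.34% of tested genes, 1.47% being lower without overlap. LIN28B was at 114, 112, 103 and 100.2 CPM with DMSO and at 105, 106, 97.5 and 94.5 CPM with dTAG47. The groups overlapped, and replicates 3 and 4 were lower than replicates 1 and 2 in each group. The log2 fold change of LIN28B was -0.09 (SE 0.05, 95% interval -0.20 to 0.02, edgeR FDR = 0.682).

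IGF2BP1 had the narrowest interval, with 750, 766, 743 and 772 CPM in the DMSO libraries and 752, 746, 755 and 748 CPM in the dTAG47 libraries. The dTAG47 libraries all lay within the DMSO range, and the log2 fold change of -0.01 had a 95% interval of -0.09 to 0.06. IGF2BP3 was at 104 to 119 CPM over the 8 libraries, with a log2 fold change of -0.05 (95% interval -0.16 to 0.06). For IGF2BP1 and IGF2BP3 a change with dTAG47 as large as 0.2 on the log2 scale is outside the interval.

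DICER1 was at 286, 287, 264 and 261 CPM with DMSO and at 253, 280, 248 and 236 CPM with dTAG47. The second dTAG47 library lay within the DMSO range and the other 3 below it, and the log2 fold change was -0.11 (SE 0.05, unadjusted p = 0.0501 and FDR = 0.673 by edgeR). HMGA1 was at 370, 379, 429 and 414 CPM with DMSO and at 420, 384, 451 and 454 CPM with dTAG47, with a log2 fold change of 0.10 (95% interval -0.02 to 0.22, edgeR FDR = 0.680). For these genes, too, replicates 1 and 2 differed from 3 and 4 in the DMSO group. With that split as a factor in the fit, DICER1 was called lower (-0.11, edgeR FDR = 0.0286) and HMGA1 higher (0.10, FDR = 0.0365), and the calls over all genes went from 17 higher and 6 lower to 374 and 420. What the split stands for is not in the labels. LIN28A, with 60 to 94 counts in each library, had a log2 fold change of 0.14 (95% interval -0.17 to 0.44).

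Over the 14 libraries, the expressed members were compared by Pearson's r of log2 CPM centred within each experiment. This is a description over libraries that share groups, and differences between the groups are part of it. Of the members, IGF2BP3 (r = 0.91) and DICER1 (r = 0.90) were nearest to LIN28B, but 86.7% and 86.0% of all genes had a lower r with LIN28B than these, so likeness of this size was common. HMGA1 had an r of -0.32 with LIN28B, and 42.8% of all genes had a lower one. For IGF2BP1, MYCN had an r of 0.83, above that of 98.6% of genes, and for HMGA1 it had an r of 0.71, above that of 93.8%. EGFP replicate 1 was the lowest EGFP library for MYCN, IGF2BP1 and HMGA1. It was the highest for LIN28B, DICER1 and IGF2BP3. How far these r values rest on that library was not tested. Over 13424 genes tested in both experiments, the 5 most like LIN28B were ZRANB2, C1orf27, MZT1, ECT2 and GNA13, with r of 0.995 to 0.996. Their log2 fold changes with OmoMYC ran from -1.26 for MZT1, a component of the gamma-tubulin complex, to -0.50 for GNA13, a G protein subunit, and none was called with dTAG47.

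Of the enzymes that process microRNAs, 4 of 19 tested entries rose and 6 fell with OmoMYC, with a median log2 fold change of -0.02, against 27.3% of all tested genes called higher and 25.7% lower. Leaving out 1 library changed these counts. Those called higher numbered 1 without OmoMYC replicate 3, and 2 without EGFP replicate 2 or replicate 1 or 2 of OmoMYC. Those called lower numbered 3 without EGFP replicate 2 or replicate 1 or 3 of OmoMYC, and 7 without EGFP replicate 3. With the offsets for gene features, 3 were called higher and 8 lower, where 39.6% of all tested genes were called lower. DROSHA, the nuclear enzyme that releases precursors, fell by 0.26 on the log2 scale (edgeR FDR = 0.00509). XPO5, which exports precursors, fell by 0.27 (FDR = 0.00354), and RAN, the GTPase of that export, fell by 0.35 (FDR = 0.00227). TARBP2, the partner of DICER1, rose with a log2 fold change of 0.29 (FDR = 0.0128), as did the helicase DDX17 with 0.28 and the Argonaute AGO4 with 0.26. The helicase DDX5 is listed under 2 identifiers in this table, neither called, at a mean of 1.10 CPM for its main identifier with EGFP against 1134 CPM with DMSO in the parental table. The same gap was seen for YTHDC1, HMGB3 and HUWE1, so the values of these genes in the engineered cells are uncertain. HUWE1, in whose intron let-7f and miR-98 lie, was the only let-7 host gene tested, with 0 entries called higher and 1 of 2 called lower.

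Among other genes described as let-7 targets, 6 of 29 rose and 13 fell, with a median of -0.15, against 27.3% of all tested genes higher and 25.7% lower. The largest falls were those of THBS1, a secreted matrix glycoprotein (-1.37, edgeR FDR = 7.99e-05), the activin receptor ACVR1C (-0.80) and the deubiquitinase YOD1 (-0.76). THBS1 and ACVR1C were low, with means of 3.98 and 2.04 CPM with EGFP against 58.6 CPM for YOD1. The insulin receptor substrate IRS2 rose by 0.71 and the nuclear receptor NR6A1 by 0.69. Members of the list thus moved in both directions. With the offsets for gene features, 5 rose and 23 fell, against 39.6% of all tested genes called lower in that fit. Over all 3′ UTRs, 28.1% of the 32 tested genes with 3 or more CTACCTC matches were called lower and 28.1% higher, against 25.9% and 27.2% of the 11802 genes with none. The genes with 3 or more matches had a median log2 fold change of -0.13 and a median 3′ UTR of 6821 bases, and those with none 0.01 and 1195 bases.

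The insulin-like growth factor system held the largest change of any list. IGF2, the fetal growth factor whose mRNA gave the IGF2BP family its name, was at 1.55, 2.08 and 2.48 CPM with EGFP and at 77.9, 84.2 and 86.5 CPM with OmoMYC. Every OmoMYC library was far above every EGFP library, with a log2 fold change of 5.35 (SE 0.14, edgeR FDR = 7.17e-10), while the parental libraries held 6 to 18 counts of IGF2 each. IGF2 shares its locus with the read-through gene INS-IGF2 and with IGF2-AS. The carrier proteins moved in opposite directions, IGFBP3 with a log2 fold change of 2.06 from 0.872 CPM and IGFBP5 with -1.50 from 51.7 CPM. In all, 5 of 12 tested genes of the system rose and 3 fell, with IRS1 at -0.46 and the ternary complex subunit IGFALS at 0.72. Over all tested genes, 27.3% were called higher and 25.7% lower. With the offsets for gene features the counts were 3 and 8, where 39.6% of all genes were lower, and 3 were higher without replicate 2 or 3 of either group. IGFBP5 was at 531 CPM in DMSO-treated parental cells, and this difference across tables was not tested.

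**Figure D5:**
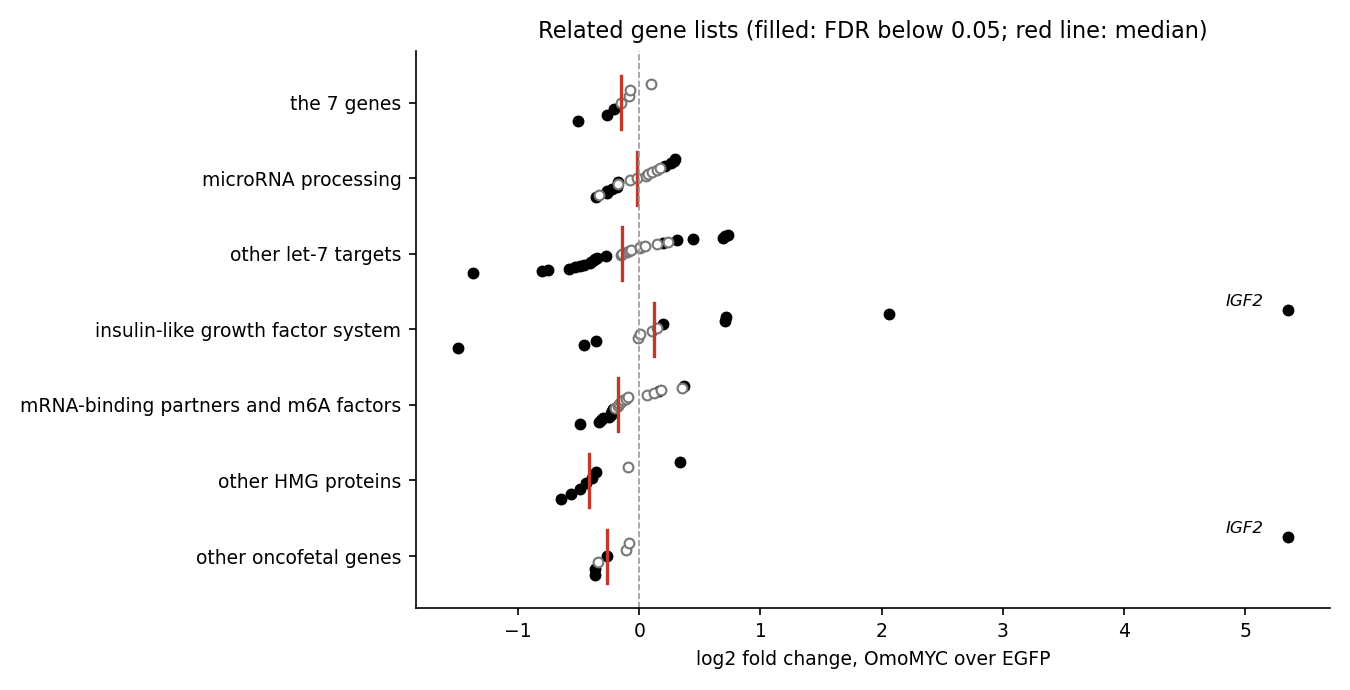
Log2 fold change, OmoMYC over EGFP, of the 7 tested genes and of 6 related lists. Each point is a tested gene entry, filled where the edgeR FDR is below 0.05, and the red line is the median of the list. The points of HMG proteins lie mostly below 0, with a median of -0.42, and IGF2, which is in 2 lists, stands apart at 5.35.

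Among mRNA-binding partners of IGF2BP proteins and factors of the m6A mark that they read, 2 of 22 tested genes rose and 9 fell, with a median of -0.17, against 27.3% and 25.7% of all tested genes. Only 1 was called higher by DESeq2, with RLE or upper quartile factors, without the filter, with the offsets, and in each fit that left out a library other than EGFP replicate 1. SYNCRIP, an hnRNP that shares mRNP granules with IGF2BP1, fell by 0.49 on the log2 scale (edgeR FDR = 0.00441). WTAP, the adaptor of the m6A methyltransferase, fell by 0.33 and the nuclear matrix protein MATR3 by 0.31. The neuronal RNA-binding protein ELAVL3 rose by 0.37 and STAU1, which binds double-stranded RNA, by 0.16.

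Most other tested proteins of the high mobility group fell with OmoMYC. Of 8, 6 fell, with a median of -0.42 and 25.7% of all tested genes lower, and the 6 included HMG20B (-0.64, edgeR FDR = 0.000221), the DNA-bending protein HMGB1 (-0.56, FDR = 0.000221) and the nucleosome-binding protein HMGN1 (-0.49, FDR = 0.000659). HMGB1 and the HMGN genes have many processed pseudogenes, which could share reads. Of 7 other oncofetal genes, IGF2 rose and 3 fell, against 27.3% of all tested genes called higher and 25.7% lower. The 3 were SALL4, a transcription factor of embryonic stem cells (-0.36, edgeR FDR = 0.0349), and the imprinted genes PEG3 (-0.36) and PEG10 (-0.26). With the offsets 6 were called lower, where 39.6% of all tested genes were.

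With dTAG47, edgeR and DESeq2 called 0 genes of these lists. An unadjusted edgeR p below 0.05 was found for 6 of 29 other let-7 targets and 2 of 8 other oncofetal genes. It was also found for 1 of 18 genes of microRNA processing and 1 of 14 of the insulin-like growth factor system. Over all tested genes the share was 7.28%. With replicates 1 and 2 against 3 and 4 as a factor, 3 let-7 targets were called lower and 1 higher, and 2 oncofetal genes higher. In each of the microRNA processing and insulin-like growth factor lists 1 gene was called lower. That fit called 374 of 14470 tested genes higher and 420 lower. The replicate block gave the same counts except for 0 let-7 targets higher, with 306 of all tested genes called higher and 362 lower. With the offsets, 1 oncofetal gene was higher and 1 growth factor gene lower, where 88 of all tested genes were higher and 45 lower. Without dTAG47 replicate 2, 1 let-7 target was lower, where 52 of all tested genes were higher and 32 lower.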

How the data were processed

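RNA-seq counts of 14 CHP-134 libraries were used. Per the study's methods and processing notes, reads were trimmed with Cutadapt, aligned to hg19 with STAR and counted with featureCounts; the annotation, strand setting and treatment of multi-mapped reads are not given in the sources used here. The deposited values are raw counts, without normalization by the authors. Replicates differed by more than sampling noise and were kept apart. Each experiment was fitted alone in R 4.3.3 with edgeR 4.0.16 (filterByExpr, TMM, robust quasi-likelihood test, Benjamini-Hochberg adjustment over all tested genes, FDR threshold 0.05). CPM use TMM-scaled totals and log2 CPM a prior count of 2. The study used DESeq2, here an alternative (1.42.0) beside limma-voom (limma 3.58.1), RLE, upper quartile and unscaled library sizes, an unfiltered table, a minimum of 10 counts per gene and library, a replicate block, offsets for GC content, length and span, and leaving out each library. Transcripts, coordinates and 3′ UTRs came from GENCODE lifted to GRCh37, and all 16 seed-match stretches were read again from the genome. A 0 is bounded by 3 counts over the group; that bound and Poisson intervals cover counting error only, whereas intervals of fold changes come from the edgeR fit and include the spread between libraries. In data simulated for the OmoMYC design (13803 genes), 65 of 100 genes changed by 0.5 on the log2 scale and 94 of 100 changed by 1 were recovered. Of the calls, 5.92% were false. For dTAG47 (14470 genes) it was 76 and 90 of 100, with 5.14%. No other genes were changed in the simulations, whereas 7311 were called in the OmoMYC data. The FDR cutoff depends on how many genes change, so recovery in the OmoMYC data may differ. The members and the lists were chosen with earlier results of these data known. The text names all 8 members, MYC and MYCN, the 5 genes most like LIN28B, and from each list up to 3 called genes in each direction whose groups did not overlap, by size of change, except genes that are not reported here; DDX5, YTHDC1, HMGB3, HUWE1, TH, DBH and COL1A1 were named after their values were seen.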

Additional observations from a re-analysis of the deposited data

Results flagged for a closer look

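A single value stood apart from the rest of its group by Dixon's criterion (0.829 for 4 samples), among 15 groups of 4 libraries tested. For normally distributed values, chance gives such a value in about 1 group of 20. HMGA2 was at 0.0371 CPM in dTAG47 replicate 2 and at 0 in the other 3 dTAG47 libraries. Where the other 3 values are 0, any count gives the largest ratio possible. That rate therefore does not hold for HMGA2, and the criterion cannot judge this value. The value rests on 2 counts, and 2 counts over the dTAG47 group have a 95% Poisson interval of 0.00122 to 0.0363 CPM, which overlaps the limit of 0.0162 CPM that 0 counts allow in the DMSO group.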

How the results depend on the processing

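LIN28B and IGF2BP3 were called lower with OmoMYC under every alternative, with an FDR of at most 0.00667 and 0.0471. DICER1 was called in 3 of 6 fits that left out a library and in all 10 others. IGF2BP1 was called in 6 of the 10 others and HMGA1 in 2. The members called lower with OmoMYC numbered 3 in the reported fit. They numbered 4 by DESeq2, with RLE or upper quartile factors, or with a replicate block alone. With offsets for gene features they numbered 5, with or without a replicate block. Leaving out a library gave 2 to 5, with 5 without EGFP replicate 1. The members called with dTAG47 numbered 0; with replicates 1 and 2 against 3 and 4 as a factor, 1 was higher and 1 lower, and the cause was not tested. Leaving out a library with OmoMYC moved LIN28A from -0.090 to 0.425, reversed without EGFP replicate 1 (-0.07), EGFP replicate 3 or OmoMYC replicate 1 (-0.02), and IGF2BP2 from -0.318 to 0.025, reversed without EGFP replicate 3. IGF2BP3 with dTAG47 became 0.0056 with the offsets and 0.0062 with offsets and block. Of 226 refitted fold changes of members, 204 kept their direction and side of the threshold. Replicate numbers did not pair single samples. Same-numbered libraries had correlations of -0.07 to 0.29 and 0.01 to 0.16, and 1 of 3 EGFP and 2 of 4 DMSO libraries correlated best with their own number. Parental replicates 1 and 2 did correlate positively across the DMSO and dTAG47 groups, as did 3 and 4 (0.01 to 0.25). Every correlation of 1 or 2 with 3 or 4 across these groups was negative (-0.23 to -0.02). The reported dTAG47 fit does not include this split. The replicate block moved the calls over all genes from 7311 to 8100 with OmoMYC and from 23 to 668 with dTAG47, where it made 1 member, DICER1, lower (-0.11, edgeR FDR = 0.0295). Depth limits LIN28A, IGF2BP2 and HMGA2, whose counts allow no firm statement on a change.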
